A study of Mus musculus with 4 samples.

Results

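The 10 genes described here control the contractile state of smooth muscle; they were followed in the ureter of mice with and without the microRNAs miR-143 and miR-145. They were Myocd, Srf, Mrtfa, Mrtfb, Elk1, Klf4, Fhl1, Fhl2, Csrp1 and Mustn1, grouped by their roles; the group was drawn up with earlier results of these data known. All 10 were among the 19296 genes measured, each read from the brightest probe set that carries that gene symbol alone. RNA came from 2 wild type mice (miR-143/145+/+) and 2 knockout mice (miR-143/145-/-), all male and of a mixed 129Sv and C57BL6 strain, each hybridised to its own whole-transcript array. At 4.5 months of age the wild type mice had normal kidneys. At 2.5 months the knockout mice had hydronephrosis, in which urine that cannot drain distends the kidney. Genotype thus differed together with age and kidney state, and the 3 cannot be told apart. No promoter or cell type that would restrict the deletion is named in the labels.

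Serum response factor, encoded by Srf, binds a short DNA motif called the CArG box and recruits partners that compete for it. Myocardin and the related proteins MRTF-A and MRTF-B drive contractile genes, whereas ternary complex factors such as Elk-1 drive growth-responsive immediate early genes, and Klf4 opposes the contractile programme. The switch between contractile and proliferative, so-called synthetic, smooth muscle depends in part on the balance of these regulators. The miR-143/145 cluster is itself a target of SRF and myocardin, and Klf4 and Elk1 have been reported elsewhere as targets of miR-145 and miR-143.

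Among the 10 regulators, Myocd and Mustn1 rose in knockout ureter, each by about 2-fold, and 8 did not pass the test. Srf, Elk1 and Klf4 had the smallest differences, with folds of 1.07, 1.10 and 1.07. Fhl2 lay just outside the threshold at 1.48-fold. An adjusted p under 0.05 in limma, with Benjamini-Hochberg adjustment over all genes, was the threshold throughout. By this rule 2 of 10 regulators were called, both higher in knockout, where 2.38% of all genes were called, 1.9% higher and 0.477% lower. With each array centred on its median, the calls over all genes were 309 higher and 317 lower in place of 367 and 92, and Myocd and Mustn1 were again the called regulators. At an unadjusted p under 0.05, 4 of the 10 were higher (Myocd, Mustn1, Fhl2 and Csrp1), beside 26.5% of all genes called by that rule and 12.7% called higher. All 10 differences were positive, with a median of 0.26 on the log2 scale. Over all genes 9086 of 19296 were positive, with a median of -0.02. All 10 regulators were above the background level of log2 6.58. Among genes above it, 7748 of 14227 were positive, with a median of 0.03. Without wild type mouse 1, 8 of 10 regulators were positive. Every fold and every difference below is knockout relative to wild type.

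The CArG box is printed here because it is the sequence through which SRF and the myocardin family reach their targets, including genes of this group. It reads CC, then 6 bases that are each A or T, then GG, and its reverse complement has the same form, so that 1 search covers both strands. RefSeq promoter windows of assembly GRCm38.p6, from 250 bases before to 50 bases after a transcription start, were found for 9 of the 10 genes; Myocd had no entry. A box was present in a window of 3 of those 9 genes, Srf, Fhl1 and Fhl2, compared with 1.81% of the 27025 genes that have a window. Among the lists of other pathway genes described further on, 4 of 12 cytoskeletal targets (33.3%) and 1 of 19 smooth muscle targets (5.26%) with a window held one. So did 1 of 8 immediate early genes, 1 of 8 synthetic state genes and 1 of 16 chromatin cofactors. Of 19 other transcription factors and 10 other LIM protein genes, 0 did. Only exact matches within a window were counted, so boxes elsewhere or of another form would be missed. The stretches below end before the start site, run 5′ to 3′ on the strand of the gene, and have the boxes in capitals. The window of Srf held 2 boxes, which begin 82 and 62 bases before the start (chr17:46556170-46556289, minus strand). The 2 windows of Fhl2 held 1 box each, 96 bases before one start (chr1:43196803-43196902, minus strand) and 31 bases before the other (chr1:43163962-43164037, minus strand). The box of Fhl1 began 102 bases before 1 of its 2 starts (chrX:56779536-56779635, plus strand). Cnn2, a calponin gene described further on, is added as a called gene with a box, 56 bases before its start (chr10:79988499-79988598, plus strand). It was picked for having both, and a link between calls and boxes was not tested.
Srf: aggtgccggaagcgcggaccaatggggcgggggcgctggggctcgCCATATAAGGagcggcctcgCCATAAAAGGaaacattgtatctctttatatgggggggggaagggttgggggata
Fhl2, first start: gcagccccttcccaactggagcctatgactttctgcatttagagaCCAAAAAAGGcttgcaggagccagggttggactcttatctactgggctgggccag
Fhl2, second start: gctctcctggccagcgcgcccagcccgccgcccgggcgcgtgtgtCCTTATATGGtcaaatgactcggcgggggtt
Fhl1: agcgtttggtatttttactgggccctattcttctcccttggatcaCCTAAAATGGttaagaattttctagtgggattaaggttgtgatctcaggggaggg
Cnn2: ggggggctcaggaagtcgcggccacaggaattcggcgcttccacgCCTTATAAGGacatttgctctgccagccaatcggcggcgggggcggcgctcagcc
The boxes differ in their A and T bases. No box was found in the windows of Mustn1, Csrp1, Klf4, Elk1, Mrtfa and Mrtfb, which says only that these letters are not in those windows. A match is a description of sequence; binding was not measured.

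Myocd encodes the coactivator that is most closely tied to the contractile state. Its log2 expression values were 9.41 and 9.41 in the wild type mice and 10.49 and 10.34 in the knockout mice. Both wild type values were nearly the same, and both knockout values lay about 0.93 or more above them. The mean was 9.41 ± 0.01 in wild type and 10.42 ± 0.11 in knockout (SD, n = 2 each), a 2.01-fold rise with a log2 difference of 1.01 (SE 0.12, 95% interval 0.73 to 1.29, limma adjusted p = 0.0208). Its unadjusted p ranked 55 among the 19296 genes. Without knockout mouse 1 the difference was 0.93 (limma adjusted p = 0.00482), and without knockout mouse 2 it was 1.08 (limma adjusted p = 0.00329). Without wild type mouse 1 it was 1.01 (limma adjusted p = 0.183), and without wild type mouse 2 it was nearly as large (limma adjusted p = 0.202). Those 2 fits keep a single wild type mouse, so the spread within wild type could not be measured in them.

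The relatives of myocardin did not pass. Mrtfa encodes MRTF-A, a coactivator that moves to the nucleus when actin polymerises. Mrtfa measured 8.42 and 8.50 in the wild type mice and 8.68 and 8.68 in the knockout mice, a log2 difference of 0.22 (95% interval -0.05 to 0.49, limma adjusted p = 0.263). Mrtfb, which encodes MRTF-B, measured 9.87 and 10.05 for wild type and 10.14 and 10.19 for knockout. Its difference was 0.20 (95% interval -0.08 to 0.49, limma adjusted p = 0.319). The genotypes did not overlap for either gene, but neither passed, and an increase beyond 0.49 lies outside both intervals. Mrtfb has 2 further probe sets, with differences of 0.19 and 0.33, neither past the threshold when all probe sets were tested. Whether the rise of Myocd exceeded the differences of Mrtfa and Mrtfb was not tested.

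Srf, the DNA-binding partner of these coactivators, measured 9.23 and 9.14 in wild type against 9.30 and 9.25 in knockout. The knockout values lay above the wild type values by as little as 0.02. The difference was 0.09 (95% interval -0.18 to 0.36, limma adjusted p = 0.635), and it was 0.00 after a further quantile normalization of the arrays. A rise of the size measured for Myocd lies outside this interval.

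The regulators that oppose the contractile state showed overlapping genotypes. Elk1, the ternary complex factor, measured 8.49 and 8.76 in the wild type mice and 8.81 and 8.71 in the knockout mice. The second wild type mouse lay between the knockout mice, and the difference was 0.13 (95% interval -0.19 to 0.45, limma adjusted p = 0.557). Klf4 measured 9.05 and 9.35 for wild type and 9.32 and 9.28 for knockout, so both knockout mice fell between the wild type mice. Its difference was 0.10 (95% interval -0.23 to 0.43, limma adjusted p = 0.677). For both genes the sign depended on 1 animal: without wild type mouse 1 the difference was -0.0014 for Elk1 and -0.05 for Klf4. Wild type mouse 1 was also the lowest of the 4 in the mean of the 11 immediate early genes described further on, at 8.20, beside 8.79 in wild type mouse 2 and 8.61 and 8.58 in the knockout mice. The part of that difference between mice in the values of Elk1 and Klf4 was not tested.

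**Figure D1:**
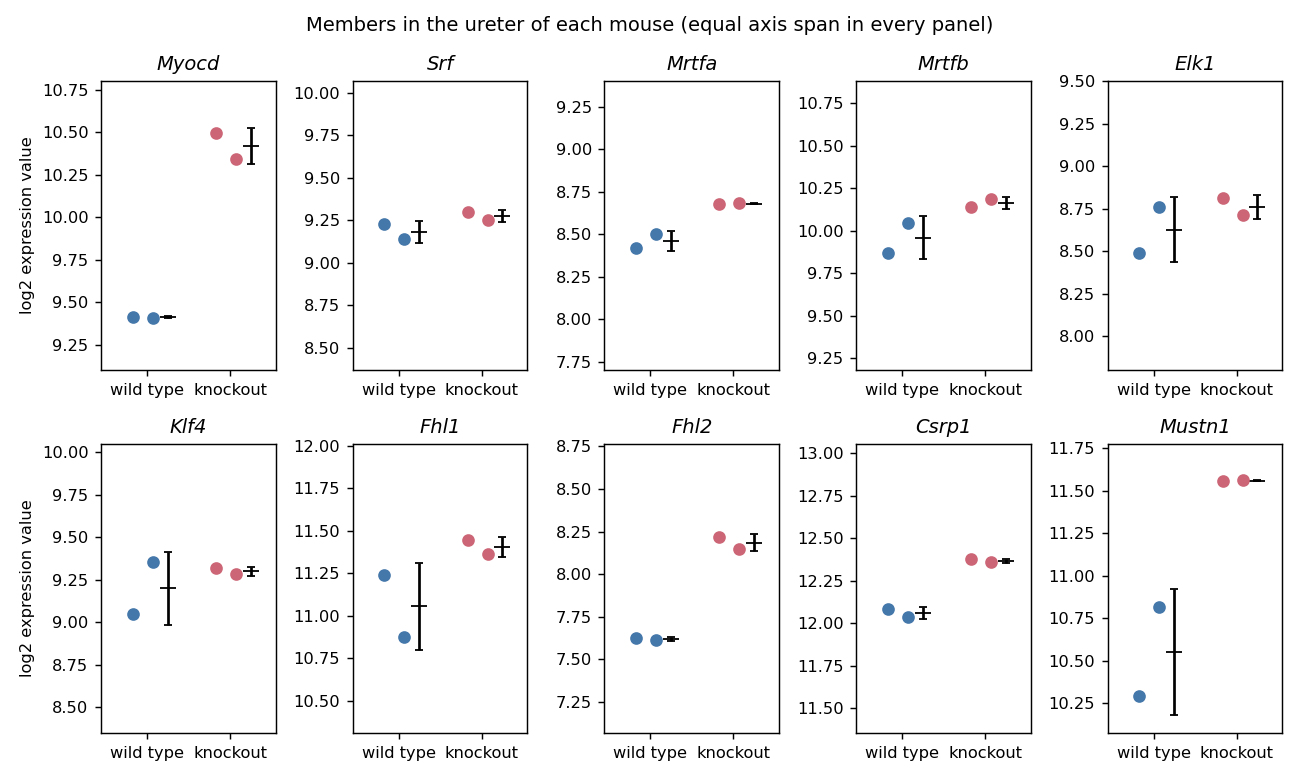
Log2 expression value of each regulator in each mouse, wild type in blue and knockout in red, with the mean and SD (n = 2 per genotype) as black bars beside the points. All panels span the same range, so the steps of Myocd and Mustn1, 1.01 each, can be compared by eye with the overlap of the genotypes for Elk1 and Klf4.

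LIM domain proteins link SRF and its partners to the actin cytoskeleton. Fhl2, a four-and-a-half LIM protein that is itself induced through SRF and binds it, measured 7.63 and 7.61 in wild type against 8.22 and 8.15 in knockout. The spread within each genotype was far smaller than the step between them, with a mean of 7.62 ± 0.01 against 8.18 ± 0.05 (SD, n = 2 each). The log2 difference of 0.56 (SE 0.11, 95% interval 0.30 to 0.83) came with a limma adjusted p of 0.0541, just outside the threshold. It passed with robust variance estimation (limma adjusted p = 0.0406) and with dim genes removed (limma adjusted p = 0.0456), but not after quantile normalization (0.073), on centred arrays (0.057) or in any of the 4 fits with 1 mouse left out (0.072 to 0.237). Csrp1, which encodes a cysteine-rich LIM protein that bridges SRF and GATA factors, measured 12.08 and 12.03 in the wild type mice and 12.38 and 12.36 in the knockout mice. Its difference was 0.31 (95% interval 0.04 to 0.57, limma adjusted p = 0.143); the interval is for a single gene and is not adjusted for the number of genes. Fhl1, a relative of Fhl2 that is abundant in muscle, measured 11.24 and 10.88 for wild type and 11.45 and 11.36 for knockout. Its wild type mice differed more from each other than its knockout mice did, and the difference was 0.35 (95% interval -0.0038 to 0.70, limma adjusted p = 0.192). The genotypes of all 3 LIM genes were apart, with knockout above. That held for 8 of the 10 regulators, while 60.0% of all genes had genotypes that did not overlap and 28.0% had knockout above.

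Mustn1, a small nuclear protein of the musculoskeletal system, was the other called gene. It measured 10.29 and 10.82 in wild type against 11.56 and 11.56 in knockout. The knockout mice agreed closely and lay 0.74 above the higher wild type mouse, while the wild type mice were 10.55 ± 0.37 (SD, n = 2). The rise was 2.01-fold, with a log2 difference of 1.01 (SE 0.18, 95% interval 0.58 to 1.43, limma adjusted p = 0.0453). The call was lost with a further quantile normalization at limma adjusted p = 0.0628, where the difference was 0.99. Without wild type mouse 1 the difference was 0.74 and without wild type mouse 2 it was 1.27, at limma adjusted p = 0.183 and 0.2. Mustn1 is also expressed in skeletal muscle. Of 12 skeletal muscle markers tested, 0 passed, 9 were lower in knockout, and the list means were 7.44 and 7.53 in the wild type mice and 7.43 and 7.33 in the knockout mice. Of the 12, 7 were above the background level of log2 6.58. At an unadjusted p under 0.05, 1 of the 12 was higher and 2 were lower. The creatine kinase gene Ckm averaged 9.77 in wild type and 10.11 in knockout, and Tnni2, a fast troponin gene, averaged 8.30 and 8.66. These were among the 3 markers with a positive difference. In the other direction, Mb averaged 7.74 in wild type and 7.23 in knockout, Acta1 8.80 and 8.36, and Myl1 10.03 and 9.67. The fast myosin heavy chain genes Myh1, Myh2 and Myh4 were below background in every mouse. The part of skeletal muscle RNA in the rise of Mustn1 was not tested.

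**Figure D2:**
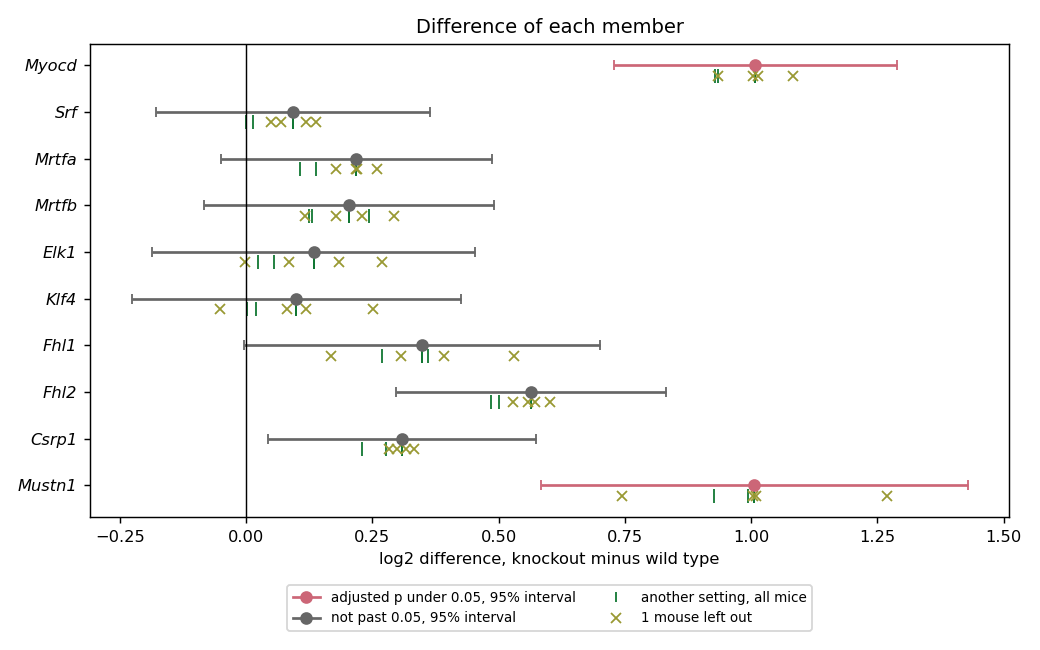
Log2 difference between genotypes for each regulator, with its 95% interval from limma, in red where the adjusted p was under 0.05 and in grey otherwise. Green ticks are the other settings with all 4 mice and crosses are fits with 1 mouse left out; those of Elk1 and Klf4 reach zero or below, whereas those of Myocd run from 0.93 to 1.08.

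The ureter samples held smooth muscle, and 7 of 7 identity markers (Acta2, Myh11, Tagln, Actg2, Cnn1, Smtn and Lmod1) were above background in all mice. Of these 0 passed, with 4 higher at an unadjusted p under 0.05, and the list means were 11.48 and 11.40 for wild type and 11.82 and 11.68 for knockout. Marker lists of other cell types also differed in level between the genotypes. Fibroblast markers averaged 10.52 and 10.57 in wild type against 11.11 and 11.28 in knockout. Of 8, 3 were called higher, and 7 were higher at an unadjusted p under 0.05. Urothelium markers averaged 11.18 and 11.46 in the wild type mice and 11.72 and 12.07 in the knockout mice. Of 12, 1 was called higher, Trp63, and all 12 were higher at an unadjusted p under 0.05. Adipocyte markers averaged 12.76 and 12.63 for wild type and 12.42 and 11.96 for knockout, with 0 of 8 called by limma and 5 lower at an unadjusted p under 0.05. Lymphocyte markers averaged 6.60 and 6.84 in wild type against 6.32 and 6.28 in knockout, and 1 of 7, the immunoglobulin gene Ighm, was called lower (-1.22, limma adjusted p = 0.0399). Endothelium markers averaged 10.32 and 10.46 in the wild type mice and 10.28 and 10.09 in the knockout mice; limma called 0 of 8, and 3 had a lower value before adjustment (p under 0.05). The part of these shifts in the differences of the regulators was not tested, and more smooth muscle cells cannot be told apart from more RNA per cell. Kidney markers were high in knockout mouse 1, with a list mean of 8.41. The mean was 6.76 in the other knockout mouse and 6.60 and 7.30 in wild type. Without knockout mouse 1 the difference was 0.93 for Myocd and 1.01 for Mustn1. The part of kidney RNA in the differences of the regulators was not tested. The deleted Mir145a measured 8.28 and 8.41 in wild type against 4.60 and 5.02 in knockout, the latter below background. Mir143, also deleted, measured 7.64 and 7.85 in wild type against 6.48 and 6.53 in knockout, the latter just below background.

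**Figure D3:**
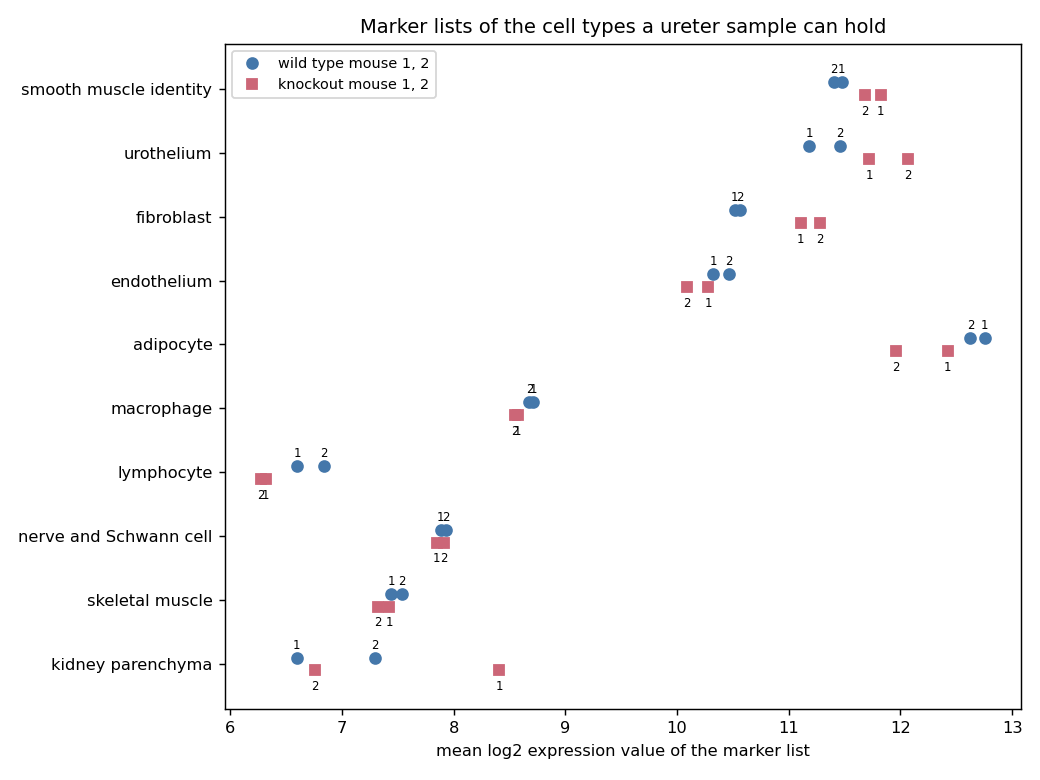
Mean log2 expression value of each marker list in each mouse, with circles for wild type and squares for knockout, numbered by replicate. Smooth muscle, urothelium and fibroblast lists lie higher in both knockout mice, the adipocyte list lies lower, and the kidney list stands out in knockout mouse 1 at 8.41.

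Other genes of the pathway were read from 7 lists, of which 118 of 126 genes were measured. Of these 9 rose, 0 fell and 109 did not pass, a called share of 7.63% beside the 2.38% of all genes. At an unadjusted p under 0.05, limma had 6 of them lower and 35 higher. Over all genes the same rule gave 2450 higher and 2660 lower. The median difference was 0.19, and 84 were positive, beside 9086 of the 19296 genes. Above background, 84 of 115 list genes were positive, beside 7748 of 14227 genes. With centred arrays 9 rose and 2 fell, the median was 0.11 with 69 positive, and the median of all genes was -0.10. Without wild type mouse 1 the median of the lists was 0.12. It was 0.20 without wild type mouse 2, 0.14 without knockout mouse 1 and 0.18 without knockout mouse 2. Over all genes the medians of these fits ran from -0.03 to -0.01.

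Contractile and channel genes driven by SRF and myocardin came first. Of 23 measured, 2 rose and 21 did not pass. Their median was 0.24. Itga8, an integrin of smooth muscle, measured 7.75 and 7.76 in the wild type mice and 8.55 and 8.58 in the knockout mice, a difference of 0.81 (SE 0.11, limma adjusted p = 0.0319). Ppp1r14a encodes CPI-17, an inhibitor of myosin phosphatase that sustains contraction. It measured 9.60 and 9.51 for wild type and 10.23 and 10.47 for knockout, a difference of 0.80 (SE 0.13, limma adjusted p = 0.0394). Its call was lost after a further quantile normalization (limma adjusted p = 0.0609) and without knockout mouse 2 (limma adjusted p = 0.054). Among 23 genes, 19 had positive and 4 negative differences.

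Cytoskeletal and matricellular genes reached through MRTF and SRF included 2 rises among 16 measured, and 14 did not pass. Ccn2, the connective tissue growth factor gene, measured 9.20 and 9.58 in wild type against 10.32 and 10.66 in knockout. It rose by 1.10 (SE 0.17, limma adjusted p = 0.0368), and the call was lost after a further quantile normalization (limma adjusted p = 0.0595). Thbs1, which encodes the matrix protein thrombospondin-1, measured 10.43 and 10.44 in the wild type mice and 11.23 and 11.44 in the knockout mice, a difference of 0.90 (SE 0.12, limma adjusted p = 0.0319). Both proteins are secreted and also made by fibroblasts, whose markers were higher in knockout. The share of fibroblasts in the values of Ccn2 and Thbs1 was not tested. The median of the list was 0.27.

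Immediate early genes, the targets that SRF reaches with ternary complex factors, gave no calls. By limma 0 of 11 passed, with 1 gene on each side at an unadjusted p under 0.05 and 6 positive differences. The balance turned on the wild type mice. Without wild type mouse 1 the median was -0.21 with 4 of 11 positive, and without wild type mouse 2 it was 0.28 with 8 positive. Over all 19296 genes the medians of these fits were -0.02 and -0.01, with 9054 and 9280 positive. Ier3 differed by 0.56 (limma adjusted p = 0.0887) and Egr3, a zinc finger transcription factor, by -0.40 (limma adjusted p = 0.156). Ier3 measured 7.54 and 7.93 for wild type and 8.27 and 8.33 for knockout, apart without passing.

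Of 25 other transcription factors with roles in smooth muscle or its precursors, Tcf21 rose and 24 did not pass. Tcf21, a basic helix-loop-helix factor of mesenchymal progenitors and fibroblasts, measured 9.14 and 9.37 in wild type against 11.00 and 10.76 in knockout. Its rise of 3.07-fold (log2 difference 1.62, SE 0.14, limma adjusted p = 0.0147) was the largest in these lists. Heyl, a Notch-responsive repressor, measured 8.39 and 8.53 in the wild type mice and 7.93 and 7.79 in the knockout mice, a difference of -0.60 (limma adjusted p = 0.0566). The median of the list was 0.03.

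Among 13 relatives of the LIM genes, Csrp2 rose and 12 did not pass. Csrp2, a sister gene of Csrp1 that is typical of vascular smooth muscle, measured 9.99 and 10.01 for wild type and 10.70 and 10.75 for knockout. The wild type mice differed by 0.02 and the genotypes by 0.72 (SE 0.11, limma adjusted p = 0.0364). Csrp3, the striated muscle member of this family, differed by -0.47 (limma adjusted p = 0.084). Fhl3 and Fhl5, of the same family as Fhl1 and Fhl2, differed by 0.04 (95% interval -0.29 to 0.37) and -0.09 (95% interval -0.75 to 0.58), and differences within the family were not tested. Fhl3 and Fhl5 lie outside the rule by which list genes were named and were chosen after their values were seen.

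The chromatin partners of the coactivators gave no calls. Of 18 chromatin cofactors limma passed 0, while 5 were higher and 0 lower before adjustment (p under 0.05). Smarca2, an ATPase of the SWI/SNF remodelling complex, differed by 0.55 (limma adjusted p = 0.0567) and the histone deacetylase gene Hdac9 by 0.53 (limma adjusted p = 0.0655).

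Genes of the synthetic smooth muscle state included 3 rises among 12 measured, and 9 did not pass. Cnn2, a calponin of non-muscle and synthetic cells whose promoter window is printed above, measured 10.59 and 10.55 in wild type against 11.33 and 11.32 in knockout. It rose by 0.76 (SE 0.11, limma adjusted p = 0.0343). Myh10, the non-muscle myosin heavy chain IIB gene, measured 9.29 and 9.19 in the wild type mice and 9.97 and 10.03 in the knockout mice, and rose by 0.76 (SE 0.12, limma adjusted p = 0.0353). Mgp, which encodes matrix Gla protein, an inhibitor of calcification, measured 10.88 and 11.08 for wild type and 11.78 and 12.01 for knockout, and rose by 0.92 (SE 0.14, limma adjusted p = 0.0353). These 3 genes and Myocd, the coactivator of the contractile state, were each higher in both knockout mice than in both wild type mice. Each had been called higher, which makes such a separation likely. Over all genes 28.0% had knockout above without overlap. Cnn2, Myh10 and Mgp are not restricted to smooth muscle, and the share of fibroblasts or urothelium in their values was not tested.

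**Figure D4:**
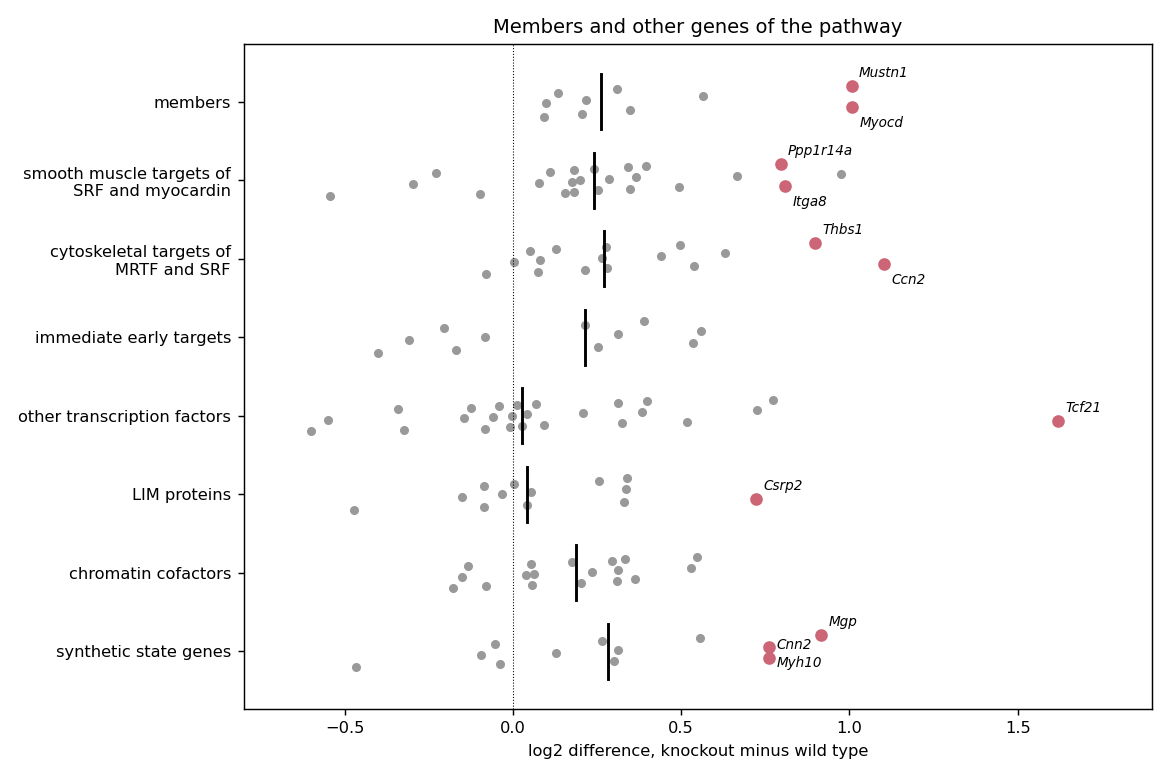
Log2 difference between genotypes of every measured gene in the 10 regulators and the 7 lists of other pathway genes, 1 point per gene, red and named where the adjusted p was under 0.05. Black bars are list medians; the red points all lie at 0.72 or above, and no gene of these lists was called lower.

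The 5 genes whose pattern over the 4 mice was most like that of Myocd were Rbm24, Defb1, Arhgef26, P3h2 and Fam171b. Likeness was the root mean square distance between values centred on each gene's mean, over 13348 other genes above background in both genotypes. The distance was 0.03 for Rbm24, an RNA-binding protein of muscle, and 0.03 for Defb1, a defensin of epithelia. It was 0.05 for Arhgef26, 0.06 for P3h2, a collagen prolyl hydroxylase, and 0.06 for Fam171b. Rbm24 measured 9.62 and 9.64 in wild type against 10.71 and 10.62 in knockout. With 4 arrays that all genes share, such closeness is a description of these mice.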

How the data were processed

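The authors deposited a log2 value for each probe set on each array. The submitters' processing notes list R 2.15.0, RMA and limma 3.12.1. RMA is meant to make the arrays' distributions alike, which reduces any change common to most genes. The values used here still kept an offset that followed genotype. Wild type mouse 1 had an array median of log2 7.81 and wild type mouse 2 one of 7.84, whereas each knockout mouse had 7.89. Lower quartiles went the other way, with wild type at 6.36 and 6.45 but knockout at 6.26 and 6.27. The source of this offset was not tested. Arrays have no counting depth; 2 mice per genotype limit the precision. Of 23309 probe sets, 20728 had 1 gene symbol, and the brightest per gene by the mean of the 4 arrays was kept, which left 19296 genes. Background was the 95th percentile of 1024 olfactory receptor genes, log2 6.58. Genotypes were compared in R 4.3.3 with limma 3.58.1 (lmFit, eBayes), two-sided, with Benjamini-Hochberg adjustment over all genes; SE is the moderated standard error. The code was tested on simulated data. List genes were named if called (up to 4 by p) or, where fewer than 2 were, as the 2 of smallest p, above background. One further gene list that had been fixed is not reported here. The regulators and lists were chosen with earlier results of these data known. Other settings were quantile normalization, the replicate number as a block, genes above background only, centring on medians, probe sets averaged per gene, array weights, an intensity trend, robust eBayes, an adjusted p of 0.1 and leaving out each mouse. Genome build and annotation of the probe sets are not given in the sources used here. Promoter sequences are from RefSeq; no protein sequences were used.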

Additional observations from a re-analysis of the deposited data

How the results depend on the processing

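Over fits with 1 mouse left out, the log2 difference ranged from 0.93 to 1.08 for Myocd, 0.74 to 1.27 for Mustn1, -0.0014 to 0.27 for Elk1 and -0.0525 to 0.25 for Klf4. Myocd kept its direction in every alternative run and its call in all but the fits without a wild type mouse, in which 0 of 19296 genes passed in limma, with 1802 and 1791 higher at an unadjusted p under 0.05.

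Fhl2, at 0.565, passed with the replicate block, with genes above background only, with robust eBayes and at an adjusted p of 0.1. Mustn1, at 0.9948, lost its call after a further quantile normalization, which left 1 regulator called. With 1 mouse left out, 0 to 2 regulators were called. Over all genes these fits gave 0 to 1115 higher and 0 to 629 lower.

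Counts over all genes moved by more than 1.5 times from 367 higher and 92 lower in several settings. They were 1164 and 758 with the replicate block, 164 and 50 after quantile normalization, 655 and 247 with robust eBayes, and 1317 and 982 at an adjusted p of 0.1. Lower genes numbered 147 with dim genes removed and 317 with arrays centred on their medians. The cause was not tested.

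In the pathway lists, the replicate block gave 5 higher and 1 lower among smooth muscle targets, 5 higher among cytoskeletal targets, 1 higher among immediate early genes, 4 higher and 2 lower among transcription factors, 1 lower among LIM proteins and 2 higher among chromatin cofactors. An adjusted p of 0.1 gave, in that order, 5 higher, 6 higher, 1 higher, 4 higher and 2 lower, 1 lower and 2 higher. Quantile normalization left 1 smooth muscle and 1 cytoskeletal target. Transcription factors had 1 lower with dim genes removed, 2 lower with centred arrays and 2 lower with robust eBayes. Chromatin cofactors had 1 higher with dim genes removed and with robust eBayes, and LIM proteins 2 higher with probe sets averaged. With 1 mouse left out, 0 to 3 were higher among smooth muscle targets, cytoskeletal targets, transcription factors and genes of the synthetic state, and 0 to 1 among LIM proteins and chromatin cofactors; 0 to 1 transcription factors were lower.

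Mice with the same replicate number did not deviate together (r = -0.03 across genes). With 2 mice per genotype, this value cannot settle whether the numbers pair the mice. The block was not used in the main fit. The precision of every value is limited by 2 mice per genotype, and signal near log2 6.58 is not told from background.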
